A study of Mus musculus with 10 samples.

Results

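The 9 genes described here encode the fibrillar and pericellular collagens that are not the classic chains of cartilage: *Col3a1*, *Col5a1* and *Col5a2* (collagens III and V), *Col6a1*, *Col6a2* and *Col6a3* (collagen VI), *Col12a1* and *Col14a1* (collagens XII and XIV) and *Col27a1* (collagen XXVII). They were taken by name, from 44 collagen genes and 29183 genes listed for both lineages, and all 9 are listed in both tables of unique molecular identifier (UMI) counts. Single cells came from *Grem1-TdT* and *Lepr-TdT* mice of the C57BL/6 strain, which carry a *Rosa-TdTomato* reporter switched on by *Grem1-creERT* or by *Lepr-cre*. *Grem1-TdT* mice were given tamoxifen chow at 5 to 6 weeks of age for 2 weeks, and their articular cartilage (AC) and growth plate (GP) were cut out and digested in collagenase type II. *Lepr-TdT* mice were age-matched, their *Cre* line is constitutive, and whole bones were crushed and digested in collagenase type I, with CD45, Ter119 and CD31 positive cells sorted away. Live TdTomato positive cells were sorted 1 per well onto 8 *Grem1*-lineage plates (numbered 1, 2 and 4 to 9) and 2 *Lepr*-lineage plates. The labels do not say whether a plate holds AC cells, GP cells or both, nor how many mice stand behind a plate, so p-values measure only the spread between plates, which may in part be technical.

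*Grem1*-lineage cells were split by the UMIs of 4 genes. The *Clu-Cilp-Ecrg4* group holds the 414 cells in which *Clu*, *Cilp* and *1500015O10Rik* (*Ecrg4*) together had more UMIs than *Cnmd*, and the *Cnmd* group holds the other 270 cells. *Cilp* encodes cartilage intermediate layer protein and *Clu* encodes clusterin. *Cnmd* encodes chondromodulin, a cartilage glycoprotein abundant in the GP. For 35 cells the gap between both sums was under 5 UMIs. The groups are ranges of gene counts and were not sorted as tissues.

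Collagen molecules are trimers of alpha chains. Collagen VI is assembled from 1 chain each of *Col6a1*, *Col6a2* and *Col6a3* or of related chains, and its beaded filaments form the pericellular matrix around chondrocytes. Collagen V nucleates fibrils of collagen I, and collagen III runs with collagen I in soft connective tissue and is minor in cartilage. Collagens XII and XIV lie on the surface of fibrils and link them to other matrix. Collagen XXVII is a short fibrillar collagen of cartilage, known from the transition of cartilage to bone in the GP.

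The genes lie, in GRCm38 coordinates of the GENCODE vM21 annotation, in a few places of the genome. *Col3a1* (chr1:45311538-45349706, plus strand) and *Col5a2* (chr1:45374321-45503282, minus strand) are neighbours. So are *Col6a2* (chr10:76595762-76623630, minus strand) and *Col6a1* (chr10:76708792-76726168, minus strand), whereas *Col6a3* is on another chromosome (chr1:90765923-90843971, minus strand). *Col27a1* is at chr4:63214004-63334991 (plus strand), *Col12a1* at chr9:79598991-79718831 (minus strand), *Col5a1* at chr2:27886425-28039514 (plus strand) and *Col14a1* at chr15:55307750-55520803 (plus strand). All 9 are annotated as protein-coding. Exons of *Col3a1* overlap *Gm47302*, annotated as a miRNA on the same strand, so strand cannot tell reads in the overlap apart. Exons of *Col5a1* overlap 2 transcripts on the opposite strand, *2810430I11Rik* and *Gm13372*. Whether strand was used in counting is not given in the sources used here, so reads of these cannot be told apart.

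Start regions are shown for the 3 collagen VI genes, whose transcripts went apart between the lineages, and for *Col27a1*, which had the largest fold difference. Each is 1 RefSeq window (GRCm38.p6) of 250 bases before to 50 bases after a transcript start, printed in the direction of transcription. Capitals mark any match to 5 short motifs: the TATA box TATAAA, the GC box GGGCGG, the CCAAT box CCAAT, the AP-1 site TGANTCA and ACAAAG, letters within the range bound by SOX factors. Both strands were searched, and no match overlapped one of another motif.
Col6a1 (chr10:76725995-76726294, minus strand): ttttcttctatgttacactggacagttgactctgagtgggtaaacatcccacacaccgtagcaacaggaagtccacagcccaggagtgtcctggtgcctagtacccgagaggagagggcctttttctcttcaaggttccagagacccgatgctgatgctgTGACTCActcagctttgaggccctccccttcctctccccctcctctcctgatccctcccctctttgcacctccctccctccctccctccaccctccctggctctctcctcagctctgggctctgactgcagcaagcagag
Col6a2 (chr10:76623581-76623880, minus strand): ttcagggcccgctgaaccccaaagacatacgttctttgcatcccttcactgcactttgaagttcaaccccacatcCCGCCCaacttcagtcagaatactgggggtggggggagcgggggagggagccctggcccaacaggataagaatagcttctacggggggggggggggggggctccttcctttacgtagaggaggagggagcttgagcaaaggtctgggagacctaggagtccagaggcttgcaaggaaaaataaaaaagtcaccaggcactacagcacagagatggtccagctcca
Col6a3 (chr1:90843922-90844221, minus strand): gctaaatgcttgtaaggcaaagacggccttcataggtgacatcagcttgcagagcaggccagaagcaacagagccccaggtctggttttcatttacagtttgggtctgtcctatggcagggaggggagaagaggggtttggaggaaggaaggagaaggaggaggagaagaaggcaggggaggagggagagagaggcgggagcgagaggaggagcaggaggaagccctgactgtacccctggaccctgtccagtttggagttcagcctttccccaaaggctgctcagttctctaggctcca
Col27a1 (chr4:63215162-63215461, plus strand): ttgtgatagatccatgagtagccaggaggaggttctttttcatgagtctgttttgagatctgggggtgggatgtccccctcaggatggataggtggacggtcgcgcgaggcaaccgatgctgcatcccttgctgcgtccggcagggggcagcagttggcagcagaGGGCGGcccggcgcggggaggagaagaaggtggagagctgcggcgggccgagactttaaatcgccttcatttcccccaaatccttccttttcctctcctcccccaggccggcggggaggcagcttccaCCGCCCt

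*Col6a1* had the AP-1 letters 90 bases before its start, a motif held by 7.81% of all 32851 RefSeq windows. *Col6a2* had 1 GC box in this window, as did 35.7% of windows at least once, and the window of a second annotated *Col6a2* start (chr10:76623355-76623654) had 3. *Col6a3* had none of the 5 motifs. *Col27a1* had a GC box on either side of the start in this window. The window lies within the gene as annotated by GENCODE, which begins at chr4:63214004, so another start may be used. The TATA letters were held by 13.6% of windows, ACAAAG by 18.7% and CCAAT by 37.4%, and none of these was in the 4 windows shown. These are matches of letters and no test of binding was made.

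Between 133289 and 179071 UMIs over the shared genes were summed per *Grem1*-lineage plate, and 64310 and 59981 for *Lepr*-lineage plates 1 and 2, from 684 and 160 cells with at least 350 detected genes. Levels are given as CPM, the UMIs of a gene scaled to the size of its library after TMM normalisation, which sets the plates on 1 scale. The labelled cell types bore out in their markers: the 9 listed genes of the cartilage list (such as *Col2a1* and *Acan*) summed to 141870 to 209850 CPM on *Grem1*-lineage plates and to 126 and 5696 CPM on *Lepr*-lineage plates, where *Col9a1* was at 0. The 6 listed marrow stroma genes (such as *Cxcl12* and *Adipoq*) summed to 23035 and 32445 CPM in *Lepr*-lineage cells and to 157 to 478 CPM in *Grem1*-lineage cells. Osteoblast genes (6 listed of 12) varied within both lineages, from 1092 to 39420 CPM on *Grem1*-lineage plates and 13980 against 2932 CPM on *Lepr*-lineage plates 1 and 2. Blood genes (3 listed of 10) reached 15851 to 22239 CPM on *Lepr*-lineage plates and 7.82 to 4187 CPM on *Grem1*-lineage plates. The fibroblast list (4 listed of 12) summed to 3126 to 6796 CPM on *Grem1*-lineage plates, of which 3108 to 6585 CPM were *Fmod*, a gene of cartilage matrix too, and to 106 and 0 CPM on *Lepr*-lineage plates. Its *Dpt* was at 0 to 186 CPM on *Grem1*-lineage plates and at 0 on *Lepr*-lineage plates, and *Clec3b* was at 0 on all. Mural genes (2 listed of 7) were at 468 to 720 CPM on *Grem1*-lineage and 112 to 133 CPM on *Lepr*-lineage plates. Most of this was 1 gene, *Cspg4*, with means of 515 ± 71 and 95.6 ± 3.7 CPM. Endothelial genes (5 listed of 8) were at no more than 14.0 CPM on any plate. The part of blood, mural and endothelial cells in the results was not tested, and results without the cells rich in osteoblast transcripts are given where they differ.

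To ask which of these collagens separate the chondrogenic *Grem1* lineage from the marrow stromal *Lepr* lineage, plate sums of both were compared. *Lepr*-lineage cells had lower transcript levels of *Col27a1*, *Col6a3*, *Col12a1*, *Col5a2* and *Col6a1*. Thus 5 of the 8 members that passed the filter on low counts were past the threshold (edgeR quasi-likelihood test, Benjamini-Hochberg adjusted p under 0.05), where 29.0% of all 2944 genes tested were. All 5 were lower in *Lepr*-lineage cells, as were 16.8% of all genes. The same 5 had no overlap between the plates of both lineages, a pattern that 20.8% of genes showed in this direction. The median log2 fold change over the 8 members was -1.43, and -0.11 over all genes tested. *Col3a1*, *Col5a1* and *Col6a2* did not pass the threshold. Lineage, tissue and digestion differ together here and cannot be told apart, and the 9 listed cartilage markers were all lower in *Lepr*-lineage cells as well. With 2 *Lepr*-lineage plates, 1 plate weighed heavily: the log2 fold change of *Col6a2* was -0.09 without *Lepr*-lineage plate 1 and -1.45 without plate 2. That of *Col5a2* was -1.37 and -2.20, and that of *Col6a1* -1.04 and -1.56. The calls of *Col5a2* and *Col6a1* depended on the plates kept.

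**Figure D1:**
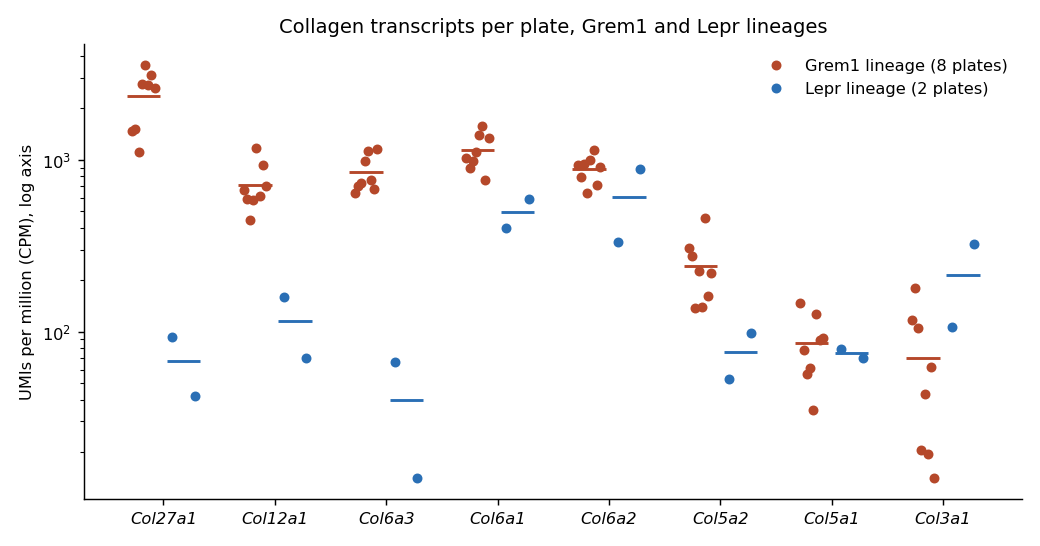
Level of 8 collagen transcripts on each plate in CPM (logarithmic axis), with 8 *Grem1*-lineage plates in red, 2 *Lepr*-lineage plates in blue and group means as lines. *Col27a1*, *Col12a1* and *Col6a3* sit far apart between the lineages, whereas *Col6a2*, *Col5a1* and *Col3a1* overlap.

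The groups within the *Grem1* lineage were compared over 8 plates, each of which gave a sum for either group. The *Clu-Cilp-Ecrg4* group had more *Col5a2*, and the *Cnmd* group more *Col12a1*, *Col27a1* and *Col6a3*. Of 6 members that passed the filter, 4 were past the threshold, beside 41.1% of the 1071 genes tested without the 4 genes of the rule. *Col5a2* was called higher, as were 19.5% of genes, and 3 members were called lower, as were 21.6% of genes. Every plate gave the direction of these 4 calls. No overlap between groups was seen for *Col5a2*, which was higher (7.84% of genes), and for *Col12a1*, which was lower (4.67% of genes). The median log2 fold change of the 6 members was -0.50, beside -0.02 over all genes tested. In *Col3a1* and *Col5a1*, which were too low for the filter, all 8 plates had more in the *Clu-Cilp-Ecrg4* group. The groups were themselves defined by gene counts of the same cells.

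**Figure D2:**
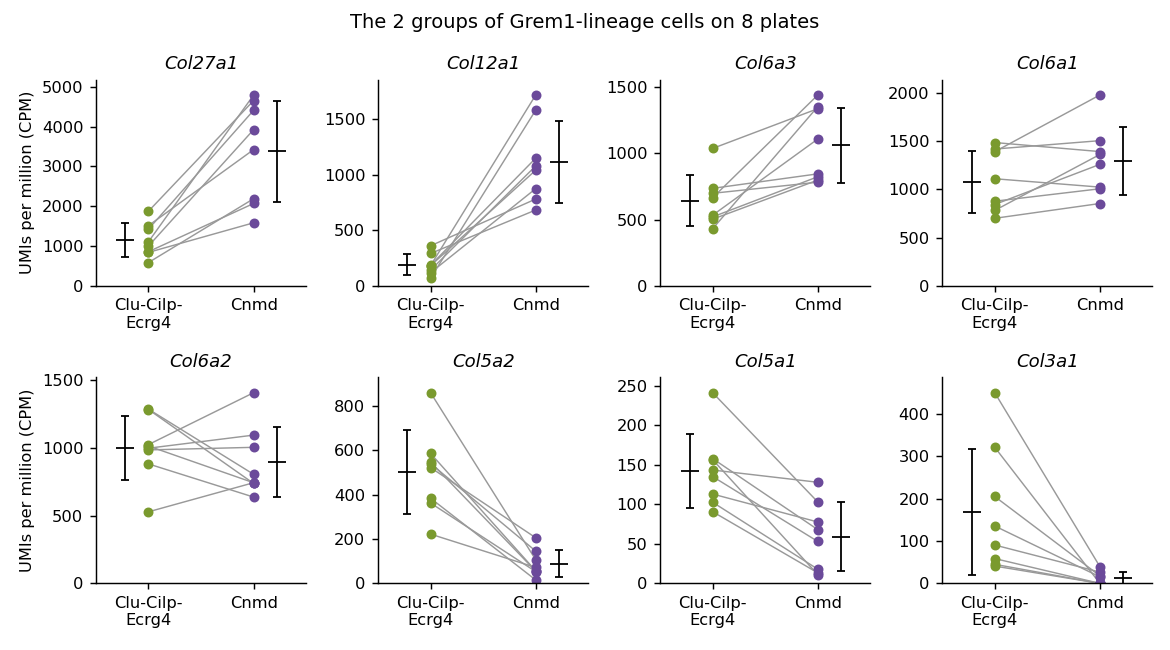
Levels of 8 collagen transcripts in CPM in the *Clu-Cilp-Ecrg4* group (green) and the *Cnmd* group (purple) of *Grem1*-lineage cells, with a grey line for each of 8 plates and the mean ± SD in black. Lines rise to the *Cnmd* group on all plates for *Col27a1*, *Col12a1* and *Col6a3* and fall on all plates for *Col5a2*, *Col5a1* and *Col3a1*.

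Collagen VI was carried by both lineages, but its 3 chains did not go together. *Col6a1*, which encodes the alpha-1 chain, ranged from 766 to 1570 CPM with a median of 1069 CPM on *Grem1*-lineage plates and was 398 and 589 CPM on *Lepr*-lineage plates 1 and 2. Both *Lepr*-lineage plates were below every *Grem1*-lineage plate, with means of 494 ± 135 (SD, n = 2) and 1136 ± 273 (SD, n = 8) CPM. The log2 fold change was -1.20 (SE 0.32, edgeR adjusted p = 0.00975), and the call was lost without *Lepr*-lineage plate 1 (adjusted p = 0.0823).

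*Col6a2*, which encodes the alpha-2 chain, was 332 CPM on *Lepr*-lineage plate 1 and 884 CPM on plate 2, with 641 to 1131 CPM and a median of 919 CPM on *Grem1*-lineage plates. The first of these lay under all *Grem1*-lineage plates and the second among them. The log2 fold change was -0.54 (SE 0.33, edgeR adjusted p = 0.227), with an approximate 95% interval from -1.18 to 0.10. Without *Lepr*-lineage plate 2 it was -1.45 and without plate 1 it was -0.09, so the value rests on which of these plates is kept. Osteoblast genes were at 13980 CPM on plate 1 and 2932 CPM on plate 2, and their part in the difference between these plates was not tested.

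*Col6a3*, which encodes the large alpha-3 chain, was 66.4 and 14.0 CPM on *Lepr*-lineage plates 1 and 2, from 5 UMIs and 1 UMI. *Grem1*-lineage plates held 638 to 1160 CPM with a median of 744 CPM, from 76 to 164 UMIs. The groups stood clear of each other, with a log2 fold change of -4.34 (SE 0.50, edgeR adjusted p = 1.09e-05), 20.3-fold. All 21 alternatives kept this call, with log2 fold changes from -5.91 without *Lepr*-lineage plate 1 to -3.70 without plate 2.

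As a share of the UMIs of the 3 chains, *Col6a3* made up 29.6% ± 4.7 (SD, n = 8) on *Grem1*-lineage plates. It made up 8.33% on *Lepr*-lineage plate 1 (5 of 60 UMIs, exact 95% interval 2.76% to 18.4%) and 0.943% on plate 2 (1 of 106 UMIs, 0.0239% to 5.14%). The lowest *Grem1*-lineage plate, at 22%, was above the upper bounds of both. Shares of UMIs compare the same chains between samples, and do not give the amounts of the chains relative to each other. Intervals cover counting error only.

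**Figure D3:**
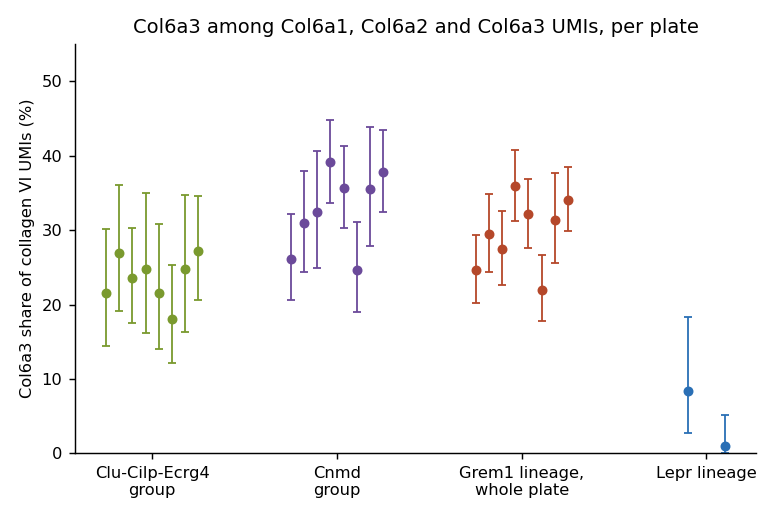
Share of *Col6a3* among the UMIs of *Col6a1*, *Col6a2* and *Col6a3* in percent, 1 point per plate with its exact 95% binomial interval, for both *Grem1*-lineage groups, whole *Grem1*-lineage plates and *Lepr*-lineage plates. *Grem1*-lineage plates range from 22% to 35.9%, and the *Lepr*-lineage plates are at 8.33% and 0.943%.

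Within the *Grem1* lineage, *Col6a3* was 430 to 1037 CPM with a median of 599 CPM in the *Clu-Cilp-Ecrg4* group and 782 to 1440 CPM with a median of 976 CPM in the *Cnmd* group. The ranges overlapped, but the *Cnmd* group was higher on 8 of 8 plates (log2 fold change of the *Clu-Cilp-Ecrg4* group against the *Cnmd* group -0.73, SE 0.19, edgeR adjusted p = 0.00478). The call was lost when cells with at least 5 UMIs of osteoblast genes were left out (-0.64, adjusted p = 0.0687) and on plates 1, 2 and 4 alone (-0.30, adjusted p = 0.345).

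*Col6a1* was 700 to 1488 CPM in the *Clu-Cilp-Ecrg4* group and 854 to 1982 CPM in the *Cnmd* group, with a log2 fold change of -0.27 (SE 0.20, edgeR adjusted p = 0.275) and an interval from -0.66 to 0.11. *Col6a2* was 528 to 1285 CPM and 637 to 1406 CPM, with a log2 fold change of 0.16 (SE 0.19, adjusted p = 0.497) and an interval from -0.20 to 0.53. Neither was past the threshold. These fits and intervals leave out the pairing of the groups by plate. With the plate as a replicate block neither was past it, but the SE was smaller. *Col6a1* was then at -0.28 (SE 0.13, edgeR adjusted p = 0.0949) and *Col6a2* at 0.16 (SE 0.16, adjusted p = 0.407). The *Clu-Cilp-Ecrg4* group was higher on 2 of 8 plates for *Col6a1* and on 4 of 8 for *Col6a2*. *Col6a3* made up 23.5% ± 3.1 of the collagen VI UMIs in the *Clu-Cilp-Ecrg4* group and 32.8% ± 5.3 in the *Cnmd* group (SD, n = 8).

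*Col27a1* had the largest difference between lineages among the members. It was 92.9 and 42.1 CPM on *Lepr*-lineage plates 1 and 2, from 7 and 3 UMIs, and 1108 to 3571 CPM on *Grem1*-lineage plates with a median of 2666 CPM. All *Grem1*-lineage plates were above both *Lepr*-lineage plates. The log2 fold change was -5.09 (SE 0.62, edgeR adjusted p = 1.86e-05), 34.1-fold, and all 21 alternatives kept the call, from -5.86 without *Lepr*-lineage plate 1 to -4.27 on *Grem1*-lineage plates 1, 2 and 4 alone. Of its 10 UMIs in *Lepr*-lineage cells, 3 came from 1 cell.

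In the *Cnmd* group *Col27a1* was 1582 to 4795 CPM with a median of 3673 CPM, and in the *Clu-Cilp-Ecrg4* group 583 to 1873 CPM with a median of 1052 CPM. The *Cnmd* group was higher on 8 of 8 plates, although the ranges of both groups overlapped. The log2 fold change was -1.56 (SE 0.26, edgeR adjusted p = 8.51e-05), 2.95-fold. Without cells with at least 5 UMIs of osteoblast genes it was -1.10 (adjusted p = 0.00176), the smallest of 19 alternatives. Plates 1, 2 and 4 had the 3 lowest levels of *Col27a1* in both groups: 583, 856 and 838 CPM in the *Clu-Cilp-Ecrg4* group and 2187, 2068 and 1582 CPM in the *Cnmd* group. The other 5 plates were at 997 to 1873 and 3422 to 4795 CPM. The labels give no property that sets these plates apart.

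*Col12a1*, whose product coats fibrils, had the largest excess in the *Cnmd* group among the 6 members tested. It was 67.8 to 360 CPM in the *Clu-Cilp-Ecrg4* group with a median of 181 CPM, and 683 to 1721 CPM in the *Cnmd* group with a median of 1062 CPM. The groups did not overlap, and the log2 fold change was -2.53 (SE 0.26, edgeR adjusted p = 1.64e-07), 5.77-fold, called in all 19 alternatives, with -1.67 on plates 1, 2 and 4 alone. In *Lepr*-lineage cells *Col12a1* was 159 and 70.1 CPM on plates 1 and 2, against 445 to 1173 CPM with a median of 641 CPM on whole *Grem1*-lineage plates. Here too the lineages did not overlap (log2 fold change -2.61, SE 0.45, edgeR adjusted p = 0.000431). The value was -3.42 without *Lepr*-lineage plate 1 and -1.74 without cells with at least 5 UMIs of osteoblast genes (adjusted p = 0.0412).

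Set against the 2 groups singly, *Lepr*-lineage cells gave a different picture for *Col12a1* and *Col5a2*. Both contrasts use the same *Lepr*-lineage plates. *Col12a1* differed from the *Cnmd* group (log2 fold change -3.05, SE 0.48, edgeR adjusted p = 0.000198), also without *Lepr*-lineage plate 1 (-3.79) and without the cells rich in osteoblast transcripts (-2.37). Against the *Clu-Cilp-Ecrg4* group it was -0.47 (SE 0.53, adjusted p = 0.50), with an interval from -1.5 to 0.56. *Col5a2* was the reverse, lower than in the *Clu-Cilp-Ecrg4* group (-2.47, SE 0.51, edgeR adjusted p = 0.00174) and at -0.02 against the *Cnmd* group (SE 0.68, adjusted p = 0.987), an interval from -1.35 to 1.31. *Col27a1* and *Col6a3* were lower in *Lepr*-lineage cells than in either group, by -3.78 and -3.65 against the *Clu-Cilp-Ecrg4* group and by -5.40 and -4.45 against the *Cnmd* group. These sizes moved with the *Lepr*-lineage plate: without plate 1 *Col6a3* was at -5.17 and -5.92 and *Col27a1* at -4.57 and -6.10, and without plate 2 *Col6a3* was at -3.03 and -3.81, all past the threshold. *Col6a1* was past the threshold against the *Cnmd* group (-1.18, edgeR adjusted p = 0.0147) and just short of it against the *Clu-Cilp-Ecrg4* group (-0.87, adjusted p = 0.0540). In all, 3 of 7 members tested were called lower than in the *Clu-Cilp-Ecrg4* group, beside 20.4% of genes, and 4 of 6 lower than in the *Cnmd* group, beside 16.8% of genes.

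**Figure D4:**
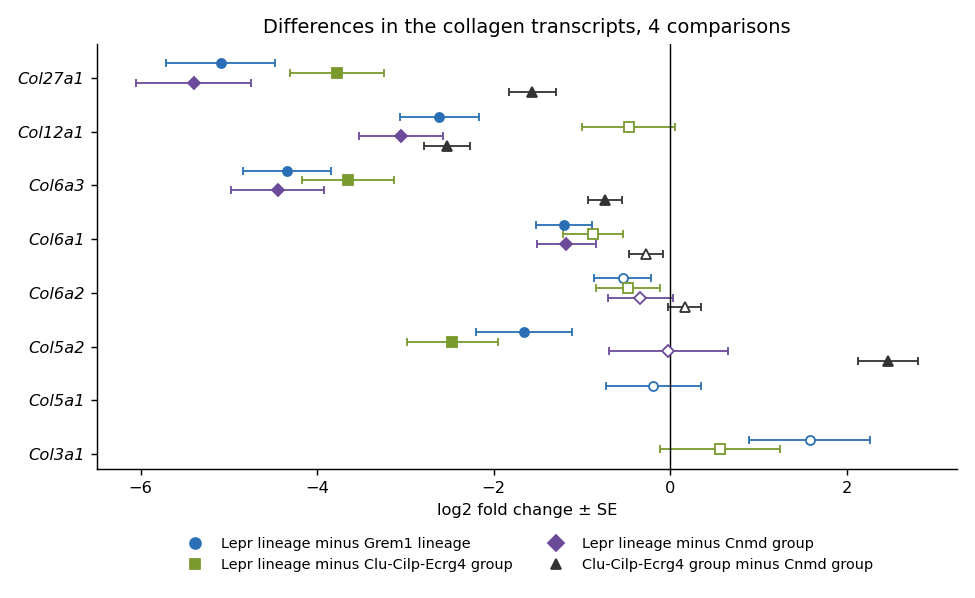
Log2 fold change ± SE of 8 collagen transcripts in 4 comparisons, each value being the first-named minus the second-named group, with filled symbols for an edgeR adjusted p under 0.05. *Lepr*-lineage cells differ from the *Cnmd* group in *Col12a1* and from the *Clu-Cilp-Ecrg4* group in *Col5a2*.

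*Col5a2*, an alpha-2 chain of the collagen that starts fibrils, marked the *Clu-Cilp-Ecrg4* group. It was 222 to 860 CPM there with a median of 531 CPM, and 15.5 to 206 CPM with a median of 64.3 CPM in the *Cnmd* group. The lowest *Clu-Cilp-Ecrg4* plate stayed above the highest *Cnmd* plate, with a log2 fold change of 2.47 (SE 0.34, edgeR adjusted p = 6.89e-06), 5.55-fold. It was 1.53 on plates 1, 2 and 4 alone (adjusted p = 0.0326) and 3.33 on the other 5 plates (adjusted p = 2.24e-06). Between lineages *Col5a2* was 53.1 and 98.2 CPM on *Lepr*-lineage plates 1 and 2 and 138 to 458 CPM with a median of 222 CPM on *Grem1*-lineage plates. The lineages did not overlap, with a log2 fold change of -1.66 (SE 0.54, edgeR adjusted p = 0.0310). This call was lost without *Lepr*-lineage plate 1 (adjusted p = 0.178) or plate 2 (0.0731), and without cells with at least 5 UMIs of osteoblast genes (-1.39, adjusted p = 0.0708).

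Cells with at least 5 UMIs of osteoblast genes carried more than their part of *Col5a2*. This cut is not scaled to depth, so deeper cells pass it more readily. It took 92 of 414 cells of the *Clu-Cilp-Ecrg4* group and 130 of 270 of the deeper *Cnmd* group. By plate it took from 8 of 94 cells (plate 4) to 60 of 89 (plate 9). How far it splits cells by depth or plate was not tested. In the *Clu-Cilp-Ecrg4* group, 92 cells with at least 5 UMIs of osteoblast genes held 25.3% of all UMIs and 50% of the *Col5a2* UMIs (94 of 188). In the *Cnmd* group, 130 such cells held 56.0% of all UMIs and 80.4% of the *Col5a2* UMIs (41 of 51). This was not particular to *Col5a2*: in the *Cnmd* group they also held 68.9% of the *Col27a1*, 65.8% of the *Col12a1* and 61.8% of the *Col6a3* UMIs. They held 14.3% of the *Col3a1* UMIs there (1 of 7) and none of the 2 *Col14a1* UMIs. Without these cells *Col5a2* was too low for the filter of the fit, at 370 against 45.3 CPM pooled over 7 plates and normalised anew, from 89 and 10 UMIs. It was still higher in the *Clu-Cilp-Ecrg4* group on 7 of 7 plates that kept both groups (mean log2 difference 2.54, two-sided exact sign-flip permutation test p = 0.0156, the smallest that 7 plates allow). Of 5 osteoblast genes tested, *Col1a2*, a chain of collagen I, was higher in the *Clu-Cilp-Ecrg4* group (log2 fold change 1.92, SE 0.67, edgeR adjusted p = 0.0268). *Alpl*, the alkaline phosphatase of bone, was lower (-1.13, SE 0.28, adjusted p = 0.00353), and 3 were not past the threshold. *Col1a2* was at 25762 CPM in that group on plate 7 and was lower there than in the *Cnmd* group on plates 2 and 9. Summed, the osteoblast list was far higher in the *Clu-Cilp-Ecrg4* group on plates 5 (51808 against 4235 CPM) and 7 (78370 against 4603 CPM). It was slightly higher on plate 4, and lower on plates 1, 2, 6, 8 and 9 (7236 against 25360 CPM on plate 9). *Col5a2* was highest on plate 7, at 860 CPM. The part of osteoblast transcripts in the *Col5a2* difference was not tested.

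*Col3a1*, a fibrillar collagen of soft connective tissue, was sparse in *Grem1*-lineage cells, and nearly all of it was in the *Clu-Cilp-Ecrg4* group. That group had 41.0 to 450 CPM with a median of 113 CPM, from 64 UMIs in 36 cells. The *Cnmd* group had 0 to 39.8 CPM, from 7 UMIs in 6 cells, with 4 of 8 plates at 0. The groups did not overlap. In the fit without the filter on low counts, in which 5.64% of 12510 genes were called, the log2 fold change was 3.44 (SE 0.50, edgeR adjusted p = 5.96e-10), a value that depends on the prior count. Over plates the mean log2 difference was 2.42 ± 0.94 (SD, n = 8), positive on 8 of 8 (two-sided exact sign-flip permutation test, p = 0.00781, the smallest that 8 plates allow). Levels were highest on plates 1, 2 and 4 (321, 450 and 205 CPM, against 41.0 to 136 CPM on the others). These plates also had the highest sums of the fibroblast list in that group (5445, 7722 and 6823 CPM against 2621 to 3855 CPM, of which 4 of 12 genes are listed and *Clec3b* is at 0). Nearly all of each sum was *Fmod*, a cartilage matrix gene that was at 5314, 5116 and 7873 CPM in the *Cnmd* group of these plates, where *Col3a1* was at 0, 39.8 and 18 CPM. *Dpt*, a fibroblast gene, was at 80.4, 315 and 359 CPM on plates 1, 2 and 4 and reached 293 CPM on plate 9, where *Col3a1* was 45.1 CPM. Of the *Col3a1* UMIs of that group, 50% lay in the cells with at least 5 UMIs of osteoblast genes.

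*Col3a1* was the one member with a higher mean in *Lepr*-lineage cells, at 106 and 323 CPM on plates 1 and 2 against 14.2 to 180 CPM with a median of 52.9 CPM on *Grem1*-lineage plates. The lower *Lepr*-lineage plate lay within the *Grem1*-lineage range, and the difference was not past the threshold (log2 fold change 1.58, SE 0.68, edgeR adjusted p = 0.0912). The value moved with the plates used. It was 0.53 without *Lepr*-lineage plate 2, 0.69 on *Grem1*-lineage plates 1, 2 and 4 alone (edgeR adjusted p = 0.350) and 0.58 on plates 1 and 2 of each lineage (adjusted p = 0.533). It was past the threshold when *Grem1*-lineage plates 1, 2 and 4 were left out (2.75, adjusted p = 0.00300), when plate 2 alone was (1.94, adjusted p = 0.0335), and without the filter (1.36, adjusted p = 0.0361). Against the *Clu-Cilp-Ecrg4* group alone it was 0.56 (SE 0.68, adjusted p = 0.534), with an interval from -0.77 to 1.90.

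*Col5a1*, the partner chain of *Col5a2* in collagen V, was low everywhere. It was 79.7 and 70.1 CPM on *Lepr*-lineage plates and 34.8 to 147 CPM with a median of 83.6 CPM on *Grem1*-lineage plates, so the lineages overlapped (log2 fold change -0.19, SE 0.54, edgeR adjusted p = 0.822, interval -1.25 to 0.87). In the *Clu-Cilp-Ecrg4* group it was 90.6 to 241 CPM and in the *Cnmd* group 11.1 to 128 CPM. These ranges overlapped as well, but the first was higher on 8 of 8 plates (mean log2 difference 1.26 ± 0.80, two-sided exact sign-flip permutation test p = 0.00781). In the fit without the filter its log2 fold change was 1.17 (SE 0.39, edgeR adjusted p = 0.0462). Of 9 members put to the sign-flip test, 6 had the smallest p that 8 plates allow. Among the members in the fit these were 4 of 6, beside 29.1% of all 1071 genes of the fit. In the same exact test *Col6a1* (p = 0.0625), *Col6a2* (p = 0.398) and *Col14a1* (p = 1.0) were not past 0.05.

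*Col14a1*, a relative of collagen XII that marks fibroblasts in many tissues, was all but undetected. It had 2 UMIs in 1 cell of *Grem1*-lineage plate 1 and 2 UMIs in 1 cell of plate 2. None was found in 160 *Lepr*-lineage cells, which allows a share of up to 1.88% of cells with a UMI. It was too low for the filter on low counts in every comparison and was not past 0.05 in the exact test above. A difference was not detectable at this depth.

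Depth per cell differed between the groups, with medians of 1217 UMIs in the *Clu-Cilp-Ecrg4* group, 2218 in the *Cnmd* group and 505 in *Lepr*-lineage cells over the shared genes. Shares of cells with a UMI were therefore compared after thinning each *Grem1*-lineage cell to 796 UMIs, which left out 60 *Clu-Cilp-Ecrg4* and 8 *Cnmd* cells. *Col27a1* was then found in 40.1% of the *Clu-Cilp-Ecrg4* group (30.2% to 56.4% by plate) and 77.9% of the *Cnmd* group (65.6% to 100% by plate), with 51.7% and 91.9% before thinning. *Col12a1* was found in 10.7% (0% to 23.1%) and 40.8% (20% to 55.6%), with 14.5% and 65.2% before. *Col5a2* was found in 21.5% (10.3% to 37.2%) and 4.58% (0% to 12.5%), with 29.0% and 11.9% before. Plates of both groups did not overlap for *Col27a1* and overlapped for the other two. *Col6a2* was found in 38.7% (27.3% to 48.7%) and 40.1% (21.9% to 53.3%), with plates of both groups in the same range. These shares are descriptions and were not tested.

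Thinned to 529 UMIs, which kept 77 of 160 *Lepr*-lineage cells, *Col6a1* had a UMI in 32.5% of *Lepr*-lineage cells (exact 95% interval over cells 22.2% to 44.1%, for counting error only), 32.7% of the *Clu-Cilp-Ecrg4* group and 41.6% of the *Cnmd* group. *Col6a3* had one in 2.60% (0.316% to 9.07%), 22.5% and 36.4%. *Col3a1* had one in 15.6% (8.32% to 25.6%), 5.57% and 0.743%. *Col27a1*, a cartilage gene, had one in 6.49% of *Lepr*-lineage cells (2.14% to 14.5%). The intervals of *Col6a3* and *Col27a1* in these cells overlap, and neither share is read as expression, since what free RNA adds to a well was not measured.

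The other collagens give the setting. Of 35 further collagen genes listed, 16 were tested between lineages, with 9 lower and 3 higher in *Lepr*-lineage cells. The 3 higher ones were *Col4a1* (552 ± 349 against 7.40 ± 9.59 CPM, log2 fold change 6.09) and *Col4a2* (192 ± 46 against 15 ± 14 CPM, 3.66), which encode the basement membrane chains, and *Col8a1* (435 ± 258 against 21.1 ± 21.9 CPM, 4.30). The largest falls were in the cartilage collagens *Col9a1*, *Col2a1* and *Col9a3*, at 3586 ± 735, 52414 ± 9725 and 4839 ± 1122 CPM on *Grem1*-lineage plates and 0, 113 ± 160 and 33.2 ± 46.9 CPM on *Lepr*-lineage plates. Between the groups of *Grem1*-lineage cells 10 were tested, with 2 higher and 6 lower in the *Clu-Cilp-Ecrg4* group. *Col10a1*, the collagen of hypertrophic chondrocytes, was higher there (8001 ± 4918 against 1580 ± 1121 CPM, log2 fold change 2.33, SE 0.53), and *Col9a1* (-2.39), *Col9a3* (-2.04) and *Col2a1* (-1.96) were lower.

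Genes that modify and fold procollagen were lower in *Lepr*-lineage cells where they differed. Of 36 such genes 9 are listed for both lineages and 8 were tested, with 5 lower and none higher. *Colgalt2*, a collagen galactosyltransferase, was 0 CPM against 350 ± 169 CPM, *Fkbp14*, a folding enzyme of the endoplasmic reticulum, had a log2 fold change of -2.76 (SE 0.61), and *Crtap*, a partner of the prolyl 3-hydroxylase, -2.50 (SE 0.43). Between the groups *Fkbp7* was higher in the *Clu-Cilp-Ecrg4* group (0.89, SE 0.24), and *Fkbp10* (-0.77, SE 0.18) and *Crtap* (-0.75, SE 0.26) were lower, with 5 of 8 not past the threshold. Among genes that cut and cross-link collagen, 5 of 17 are listed and 3 were tested. *Adamts2*, the procollagen N-proteinase, was higher in *Lepr*-lineage cells (661 ± 334 against 21.2 ± 34.0 CPM, log2 fold change 4.96, SE 0.68, edgeR adjusted p = 5.95e-05).

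Of 23 receptors and turnover genes, 9 are listed and 8 were tested between lineages. *Antxr2*, a receptor that binds collagen VI, was higher in *Lepr*-lineage cells (129 ± 43 against 43.8 ± 16.5 CPM, log2 fold change 1.52, SE 0.48, edgeR adjusted p = 0.0257). *Cspg4*, a proteoglycan that also binds collagen VI, was lower (95.6 ± 3.7 against 515 ± 71 CPM, -2.42, SE 0.31). Between the groups *Fap*, a protease of activated fibroblasts, and *Ctsk*, the collagen-degrading cathepsin, were higher in the *Clu-Cilp-Ecrg4* group (1.23, SE 0.28, and 0.80, SE 0.29), and 2 of 4 tested were not past the threshold. Of 36 matrix partners of collagen, 12 are listed and 9 were tested between lineages, with 2 higher (*Fbln1*, log2 fold change 5.59, and *Fbn1*, 2.25) and 5 lower, led by *Fmod* (-6.51), *Comp* (-5.40) and *Fn1* (-5.05). Between the groups *Dcn* (3.68, SE 0.17) and *Comp* (0.57, SE 0.14) were higher in the *Clu-Cilp-Ecrg4* group, and *Emilin1* (-0.99, SE 0.27) and *Bgn* (-0.78, SE 0.18), which encodes biglycan, were lower.

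The genes whose levels ran most alike were sought over 18 sums, those of both groups on 8 plates and of 2 *Lepr*-lineage plates, among 2844 genes with a mean of at least 50 CPM. For *Col6a3* these were *Col2a1*, *Col11a1* and *Acan* (Pearson's r = 0.981, 0.974 and 0.968), and for *Col27a1* they were *Fxyd2*, *Col9a3* and *Col11a2* (0.971, 0.971 and 0.968). *Col6a3* and *Col27a1* had an r of 0.935 with each other, whereas *Col6a1* and *Col6a2* had 0.658. For *Col12a1* the nearest were *Cd63-ps*, *Gm10224* and *Fkbp9* (0.925, 0.896 and 0.886). For *Col5a2* they were *Gabarapl1*, *Fxyd5* and *Galnt15* (0.912, 0.887 and 0.883), for *Col3a1* *Cd81*, *Angptl1* and *Ecm1* (0.821, 0.817 and 0.816), and for *Col5a1* *Flot2*, *Ankrd12* and *Elk3* (0.825, 0.818 and 0.802). *Col6a1* was nearest to *Fosb*, *Edil3* and *Eef2* (0.794, 0.790 and 0.779) and *Col6a2* to *Epha2*, *Fam178a* and *Cemip* (0.750, 0.745 and 0.728). The 18 sums share plates and depth and fall into 3 groups, so these values describe the pattern only.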

How the data were processed

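UMI counts of 8 *Grem1*-lineage and 2 *Lepr*-lineage plates were used. The authors deposited UMI counts as whole numbers, 1 per gene in each cell and not normalised. The submitters' notes name UMI-tools, STAR, featureCounts, SAMtools and Seurat with mm10, and give no versions. Of the *Grem1*-lineage table, 29183 complete rows were used and 1 incomplete row was left out, so all other genes, *Grem1* among them, were not analysed here. Wells in which fewer than 350 genes had a UMI were left out, and UMIs were summed per plate and group of at least 10 cells. This minimum was counted over 29183 genes in *Grem1*-lineage wells but over 50508 genes in *Lepr*-lineage wells, so it was looser for the latter. Over the shared genes 77 of 160 *Lepr*-lineage cells reached it. With these the same 5 members were called between lineages (863 of 2943 genes), with *Col5a2* at -2.40 and *Col6a1* at -1.54 in place of -1.66 and -1.20. Sums were tested with edgeR 4.0.16 in R 4.3.3 (TMM, filterByExpr, quasi-likelihood test, Benjamini-Hochberg adjustment over all genes tested, threshold 0.05), with DESeq2 1.42.0 as an alternative. The SE was derived from F and the log2 fold change and is approximate, as are intervals of 1.96 SE. Plate differences used a prior count of 1 and an exact sign-flip permutation test (Python 3.11.15, scipy 1.17.1).

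The members and lists were chosen with earlier results of these data known. Named from each related list were up to 3 called genes in either direction, by size of the log2 fold change, if their mean reached 50 CPM, and by likeness the 3 genes with the highest r. *Col1a2* by plate, the osteoblast sums of the groups by plate and *Alpl* were named after their values were seen. Both groups of a plate share its cells' origin: sums of the same plate deviated together (mean correlation over 1075 genes 0.290, lowest 0.173, above 0.1 on 8 of 8 plates) and those of different plates did not (-0.0414), so the groups are paired by plate. The main fit between the groups left this pairing out, and its SEs and intervals are those of unpaired sums. Symbols were matched to GENCODE vM21 (97.2% of 29183). Well barcodes recur on every plate by design (96 on all 8 *Grem1*-lineage plates, 92 in both lineages) and name wells, not shared cells. Doublets were not called, since 1 cell was sorted per well. On simulated sums edgeR recovered 28% of genes changed by a log2 value of 1.5 and 77% of those changed by 3 between lineages (2944 genes, 6.25% of calls false), and 100% of both between groups (1075 genes, 4.76% false). These sums were drawn independently, without the shared deviation of a plate, and only for genes past the filter. Between groups they do not cover *Col3a1*, *Col5a1* and *Col14a1*, and recovery in the real sums may be lower.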

Additional observations from a re-analysis of the deposited data

Results flagged for a closer look

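Over the values of the members in 27 groups of 8 plates, 3 groups had 1 plate whose gap to the next exceeded Dixon's 95% critical value, where chance gives about 1 in 20. *Col5a1* in the *Clu-Cilp-Ecrg4* group was 241 CPM on plate 1, from 12 UMIs, and 158 CPM on the next plate. *Col14a1* was 40.2 CPM in the *Clu-Cilp-Ecrg4* group of plate 1 and 26.5 CPM in the *Cnmd* group of plate 2, each from 2 UMIs of 1 cell, with all other plates at 0.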

How the results depend on the processing

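No member changed sign in a call under any alternative that gave a value. Leaving out 1 *Grem1*-lineage plate at a time gave 5 to 6 of 8 members called between lineages, beside 802 to 850 genes in all (2877 to 2920 tested). It gave 4 of 6 between the groups, beside 381 to 437 genes (1010 to 1101 tested). Against the *Clu-Cilp-Ecrg4* group 3 to 4 of 7 were called, beside 556 to 600 genes (1521 to 1597 tested). Against the *Cnmd* group 4 of 5 or 6 were called, beside 597 to 640 genes (1870 to 1911 tested). Values without 1 *Lepr*-lineage plate are given above. Cells with at least 5 osteoblast UMIs left out, 2 of 5 members tested were called between the groups (*Col12a1* and *Col27a1*), beside 38.4% of 672 genes. *Col5a2* then fell under the filter and *Col6a3* missed the threshold. The exact test without these cells was added after seeing the data. With the plate as a replicate block, the same 4 of 6 members were called between the groups as without it, beside 47.7% of 1071 genes. On plates 1 and 2 of each lineage 4 of 7 members tested were called, beside 451 of 1915 genes. A replicate block by plate number gave 4 there too (489 genes), but the labels do not link plates of the same number across lineages, so this is no pairing. Over all genes, 853 were called between lineages and 529 without *Lepr*-lineage plate 2. Between groups 440 were called, against 706 without the filter on low counts, 258 without the osteoblast cells and 235 on plates 1, 2 and 4 alone. Against the *Clu-Cilp-Ecrg4* group 597 were called and 389 without *Lepr*-lineage plate 2, and against the *Cnmd* group 641 and, without the osteoblast cells, 384. *Col6a1* against the *Clu-Cilp-Ecrg4* group was called in 6 of 19 alternatives, and against the *Cnmd* group lost in 3. With 6 to 31 UMIs for several members on the *Lepr*-lineage plates, differences of small size between lineages were not detectable.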
